A study of Mus musculus with 4 samples.

Results

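A set of 36 genes of glucose and lactate transport, glycolysis, pyruvate fate and the hypoxia response was followed in cultured neural stem cells, out of 24421 gene symbols counted in all. They were taken by symbol and all 36 were found. The RNA came from brain cells of C57BL/6J mice, isolated from the cerebral cortex at embryonic day 17 and grown for 1 day with basic FGF and EGF, each at 10 ng/mL. The libraries form 2 groups of 2. Cells of the CKO-labelled libraries carried the genotype Prrc2bf/f; Nestin-Cre, in which both Prrc2b alleles are flanked by loxP sites and a Nestin-Cre transgene supplies Cre recombinase to neural progenitors and their offspring. Control libraries came from Prrc2bf/f cells, which carry the same floxed alleles without Cre. The comparison asks what differs between cortical cell cultures of these genotype labels. Deletion of Prrc2b itself is taken from the labels. The labels do not say whether the libraries of a group had embryos or cultures of their own, so the spread behind each p-value may be technical.

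Glycolysis splits glucose into pyruvate in the cytosol. Glucose enters through GLUT transporters, pyruvate is either reduced to lactate by lactate dehydrogenase or oxidised in mitochondria by pyruvate dehydrogenase, and lactate leaves or enters through monocarboxylate transporters. Under low oxygen, prolyl hydroxylases no longer mark HIF alpha subunits for destruction, and the stabilised factors bind the letters ACGTG or GCGTG near many genes of glycolysis, mitophagy and angiogenesis. Progenitors of the developing cortex are known for active glycolysis, which is lowered as neurons form.

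Gene totals were 28205590 and 25936794 counts in the CKO-labelled libraries and 26491919 and 28263272 in the control libraries, so 3 counts stand for 0.106 to 0.115 CPM (the count of a gene relative to the effective library total). Levels below are CPM per library after scaling by the trimmed mean of M values. Fold changes are on the log2 scale, CKO-labelled over control, ± SE, with Benjamini-Hochberg adjusted p from edgeR's quasi-likelihood test over 15012 genes. Prrc2b itself stood at 575 and 573 CPM in the CKO-labelled libraries, against 588 and 594 CPM in control (-0.044 ± 0.02, adjusted p = 0.134). The sources used here do not name the floxed exon, and reads of the remaining exons are counted too, so this total does not check the genotype labels. On the Y chromosome, Uty, Kdm5d, Eif2s3y and Ddx3y had 0 counts in both CKO-labelled libraries and 180 to 667 counts in each control library. Xist, a marker of X inactivation, was present in both groups, at 2209 and 2119 CPM in the CKO-labelled libraries and 1673 and 1615 CPM in control. Both control libraries thus held Xist as well as Y-linked transcripts, so the groups cannot be read as a plain contrast of female and male cells. Whether control cells came from embryos of both sexes was not tested. In every value below, sex as read from these Y-linked genes cannot be told apart from genotype. All 12 neural stem cell and radial glial markers were detected, led by Vim, Ptprz1 and Fabp7, with a sum of 7648 and 7624 CPM in the CKO-labelled libraries and 8751 and 8656 CPM in control. Of these 12 markers 6 were lower and 2 were higher. Nes, the nestin gene, stood at 539 and 539.7 CPM in the CKO-labelled libraries and 632 and 629 CPM in control (-0.22 ± 0.02, adjusted p = 1.6e-10).

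Of the 36 members, 35 had enough counts to be tested. At adjusted p under 0.05, 10 were higher in the CKO-labelled libraries (15.1% of all tested genes were), 10 were lower (18.1% of all) and 15 did not pass. The 20 called members are 57.1% of those tested, against 33.1% of all tested genes. Abundant genes are called more often, and among the 7246 genes with a mean log2 CPM of at least 5, a level chosen after the data had been seen, 42.4% were called (18.5% higher and 23.9% lower). Of the 33 members at that level 20 were called (60.6%). The median member stood near 0 (0.011, against 0.0047 for all tested genes), with as many rises as falls. Of the 10 that fell, 7 encode transporters, hexokinases, a phosphofructokinase or its regulator Pfkfb3. Of the 10 that rose, 6 encode enzymes from aldolase to lactate dehydrogenase. These groupings were drawn from the calls and cut across the lists of members by role. Of the members related to those that fell, Pfkl rose and Slc16a3, Pfkm, Pfkfb2 and Pfkfb4 did not pass. Of those related to the members that rose, Gapdh, Eno2 and Ldhb did not pass and Eno1 was not tested. For 27 of the tested members each CKO-labelled library lay on the same side of both control libraries, against 64.9% of all tested genes. All 20 calls were also made with the other 3 scalings tried.

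**Figure D1:**
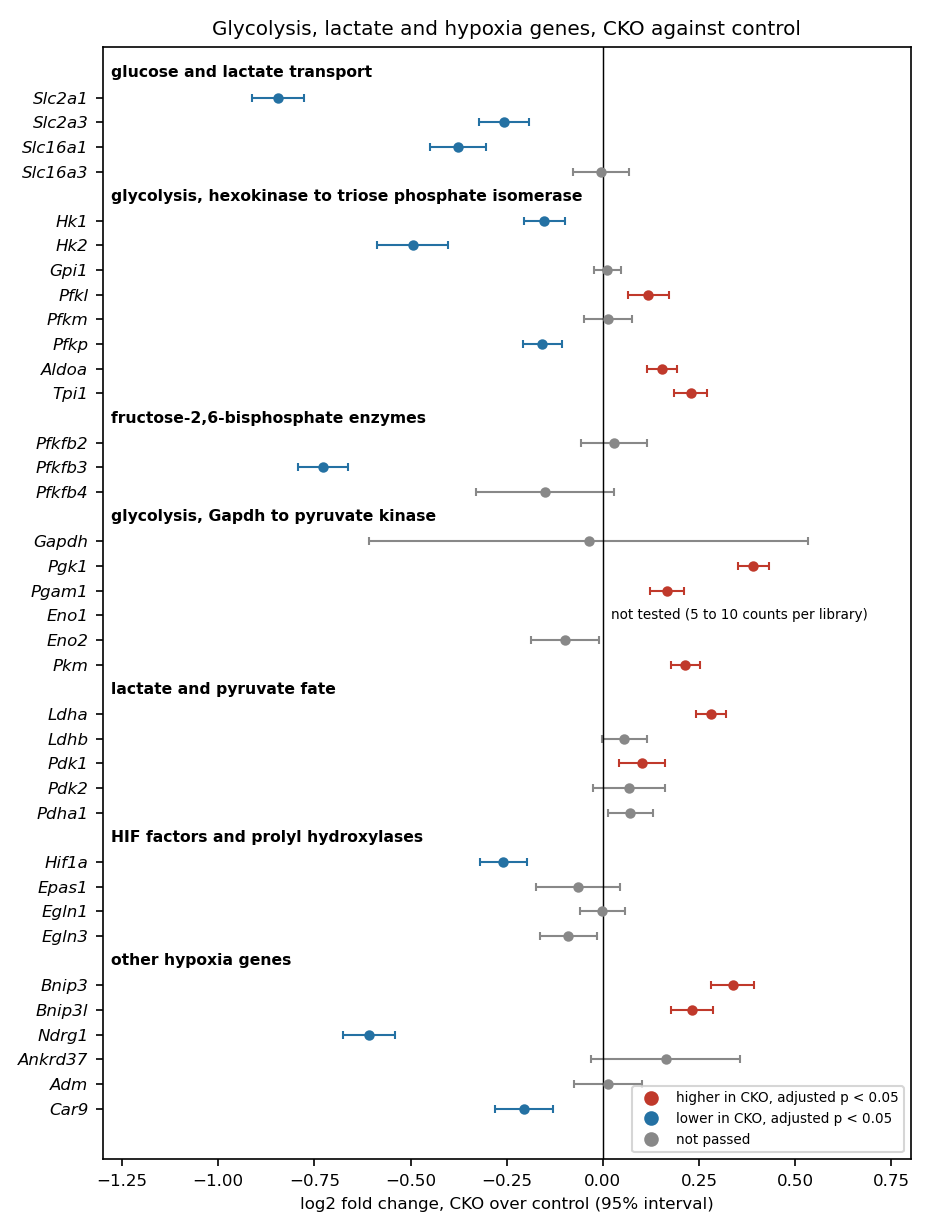
Log2 fold change of each member, CKO-labelled over control (x axis), with its 95% interval, grouped by role from transport to hypoxia genes. Slc2a1, Slc2a3, Slc16a1 and Pfkfb3 lie left of 0, while Pgk1, Pkm, Ldha, Aldoa, Tpi1 and Pgam1 lie right of it, and Gapdh has by far the widest interval.

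Promoters of the members that changed most are shown first, since these genes share a textbook regulator and yet moved in opposite directions. The windows reach from 250 bases before to 50 bases after a RefSeq start site (GRCm38.p6, the assembly also called mm10), written 5′ to 3′ on the gene's strand. They are those of the 3 members with the largest rise and the 3 with the largest fall that have a window in the table used. Capitals mark ACGTG or GCGTG on either strand (the reverse complements are CACGT and CACGC).
Pgk1 (chrX:106186850-106187149, plus strand): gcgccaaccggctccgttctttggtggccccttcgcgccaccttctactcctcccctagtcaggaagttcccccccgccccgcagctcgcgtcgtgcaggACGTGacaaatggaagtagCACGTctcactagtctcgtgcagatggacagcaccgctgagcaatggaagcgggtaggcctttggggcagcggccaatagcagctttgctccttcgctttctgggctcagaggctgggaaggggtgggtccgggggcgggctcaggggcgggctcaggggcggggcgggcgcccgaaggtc
Bnip3 (chr7:138909457-138909756, minus strand): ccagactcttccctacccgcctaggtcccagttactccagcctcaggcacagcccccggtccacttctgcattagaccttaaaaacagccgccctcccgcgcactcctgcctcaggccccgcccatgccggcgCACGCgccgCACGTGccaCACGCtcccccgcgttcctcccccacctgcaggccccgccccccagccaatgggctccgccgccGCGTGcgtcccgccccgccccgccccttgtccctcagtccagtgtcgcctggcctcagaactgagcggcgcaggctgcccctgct
Ldha (chr7:46845554-46845853, plus strand): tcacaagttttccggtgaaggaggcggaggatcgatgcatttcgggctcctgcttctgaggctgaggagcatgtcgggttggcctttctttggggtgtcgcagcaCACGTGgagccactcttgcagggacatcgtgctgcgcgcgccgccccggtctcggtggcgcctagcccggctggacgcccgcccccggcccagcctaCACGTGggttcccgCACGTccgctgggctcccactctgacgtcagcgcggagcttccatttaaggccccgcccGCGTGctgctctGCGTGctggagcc
Slc2a1 (chr4:119108495-119108794, plus strand): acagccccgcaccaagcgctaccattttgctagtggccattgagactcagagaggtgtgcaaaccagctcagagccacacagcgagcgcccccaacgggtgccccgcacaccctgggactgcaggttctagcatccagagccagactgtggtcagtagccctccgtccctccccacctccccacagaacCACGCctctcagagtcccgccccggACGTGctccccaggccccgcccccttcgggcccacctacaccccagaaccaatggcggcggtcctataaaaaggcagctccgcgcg
Pfkfb3 (chr2:11553880-11554179, minus strand): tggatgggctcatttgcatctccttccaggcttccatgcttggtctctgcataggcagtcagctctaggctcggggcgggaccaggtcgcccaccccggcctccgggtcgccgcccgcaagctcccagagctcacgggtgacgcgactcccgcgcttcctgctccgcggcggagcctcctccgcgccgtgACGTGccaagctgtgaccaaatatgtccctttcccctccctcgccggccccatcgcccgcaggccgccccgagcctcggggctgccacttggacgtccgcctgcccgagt
Hk2 (chr6:82774405-82774704, minus strand): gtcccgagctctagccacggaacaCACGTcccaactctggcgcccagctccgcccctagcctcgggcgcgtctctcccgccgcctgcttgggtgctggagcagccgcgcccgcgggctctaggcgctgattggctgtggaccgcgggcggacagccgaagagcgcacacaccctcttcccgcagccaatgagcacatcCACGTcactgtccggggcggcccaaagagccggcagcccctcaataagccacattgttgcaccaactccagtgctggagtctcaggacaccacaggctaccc
The Pgk1 window holds 2 such sites, that of Bnip3 4 and that of Ldha 5, where overlapping matches count as 1 site. The window of Slc2a1 holds 2, that of Pfkfb3 1 and that of Hk2 2. Windows of Bnip3 and Ldha also hold CACGTG, the palindrome read by E-box factors, in which ACGTG matches on both strands. Windows were found for 32 members and not for Slc2a3, Epas1, Bnip3l or Ndrg1. Only 1 window was scanned per member, although some have several. Aldoa (3 windows), Hk1 (2) and Pkm (2) are among these, and no site was found in the window scanned. Of each tested gene only the window nearest the annotated start counts below, whereas the share over all windows can hold several of a gene. At least 1 site stood in 26 of the 32 (81.2%), against 62.3% of the 11264 tested genes with a window and 43.8% of all 32851 windows of the table. It stood in 6 of 9 windows of members that rose, in 7 of 8 of members that fell and in 12 of 14 of those that did not pass. The letters were found among members of either direction. A match is a description of the letters and not a bound site.

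Among glucose and lactate transporters 3 of 4 fell (18.1% of all tested genes did) and 1 did not pass. Slc2a1 encodes GLUT1, the transporter of glia and of the blood-brain barrier, and lies at chr4:119108711-119137983 (mm10). It stood at 92.8 and 95.2 CPM in the CKO-labelled libraries, against 169 and 169 CPM in control, a fold change of -0.84 ± 0.03 (adjusted p = 3.3e-22). The libraries of each group lay close together and the groups were far apart, and this was the deepest fall of the members. Slc2a3, the gene of the high-affinity neuronal transporter GLUT3, fell less, to 136 and 130.3 CPM in the CKO-labelled libraries against 161 and 158 CPM in control (-0.26 ± 0.03, adjusted p = 3.2e-08). The log2 count ratio of Slc2a1 to Slc2a3 was -0.55 and -0.45 in the CKO-labelled libraries and 0.072 and 0.096 in control.

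Slc16a1, which encodes the widely expressed monocarboxylate transporter MCT1, stood at 93.7 and 95.5 CPM in the CKO-labelled libraries and at 126 and 119.6 CPM in control (-0.38 ± 0.04, adjusted p = 4.9e-11). Slc16a3, the gene of the glycolytic cell transporter MCT4, did not pass, with 102 and 106 CPM in the CKO-labelled libraries and 105 and 103 CPM in control. The 95% interval of its log2 fold change ran from -0.077 to 0.068. These libraries overlapped, and the log2 count ratio of Slc16a1 to Slc16a3 differed between groups by -0.37, CKO-labelled minus control.

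Several markers of other cell types moved in the same libraries. In bulk RNA, fewer cells of a type and less RNA per cell cannot be told apart. Slc2a1 is abundant in brain endothelium, and 10 endothelial markers summed to 15.4 and 16.7 CPM in the CKO-labelled libraries and to 22.5 and 23.3 CPM in control. None of the 10 was at 0 counts in all libraries, 8 were tested, 2 of them fell and 1 rose. Most of the difference between the endothelial sums came from Flt1. It stood at 4.14 and 4.31 CPM in the CKO-labelled libraries and 11.3 and 12.6 CPM in control. Kdr rose, at 3.96 and 4.69 CPM in the CKO-labelled libraries against 2.27 and 2.70 CPM in control. Pecam1 did not pass. Astrocyte markers, a list that also holds Aldoc, summed to 2386 and 2387 CPM in the CKO-labelled libraries and to 3278 and 3296 CPM in control, with 6 of 9 lower and 2 higher. Choroid plexus markers, led by Ttr, summed to 1361 and 1375 CPM in the CKO-labelled libraries and to 213 and 220.3 CPM in control, with 7 of 8 higher. Of the other lists, neuronal (6 of 9) and oligodendrocyte lineage markers (4 of 8, with 1 lower) were mainly higher, and mural and fibroblast markers (7 of 9 lower, 2 higher) and microglial markers (5 of 6 tested) mainly lower. The neuronal sum was 2923 and 2904 CPM in the CKO-labelled libraries and 2557 and 2541 CPM in control. Microglial sums stayed at or below 3.15 CPM in the CKO-labelled libraries and 7.56 CPM in control, and 5 of 7 erythroid markers were at 0 counts in all libraries. The part of these cell types in the results for glycolysis and hypoxia genes was not tested.

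**Figure D2:**
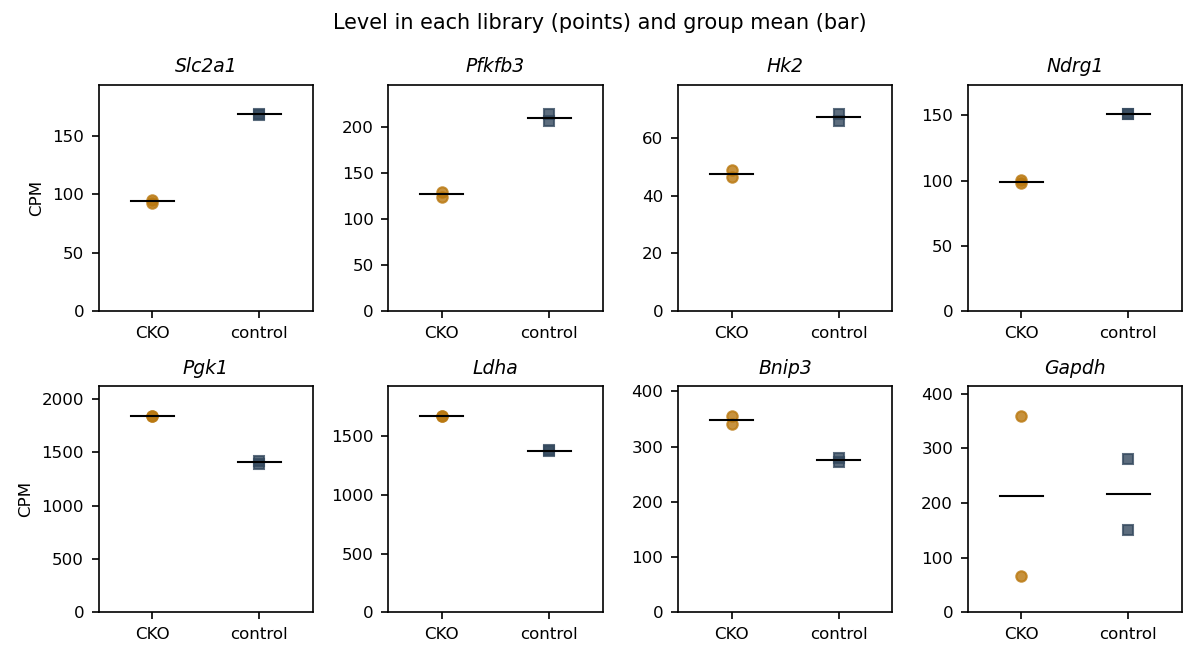
Level of 8 members in each library, in CPM on axes that start at 0, with CKO-labelled libraries on the left (circles), control libraries on the right (squares) and a bar at each group mean. Slc2a1, Pfkfb3, Hk2 and Ndrg1 were lower and Pgk1, Ldha and Bnip3 higher in both CKO-labelled libraries, while Gapdh differed more within groups than between their means.

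Of the 6 genes from hexokinase to phosphofructokinase, 3 fell (18.1% of all tested genes did), 1 rose (15.1% of all did) and 2 did not pass. Hexokinase traps glucose by phosphorylating it, and both of its genes here fell. Hk2, the inducible isoform of growing cells, stood at 46.4 and 49.1 CPM in the CKO-labelled libraries, against 68.4 and 66.0 CPM in control (-0.49 ± 0.05, adjusted p = 1.9e-11). Hk1, the constitutive brain isoform, fell to 274 and 278 CPM in the CKO-labelled libraries against 309 and 304 CPM in control (-0.15 ± 0.03, adjusted p = 1.3e-05). Gpi1, the gene of glucose-6-phosphate isomerase, did not pass. It stood at 2886 and 2852 CPM in the CKO-labelled libraries and 2841 and 2853 CPM in control, and the interval of its log2 fold change, from -0.024 to 0.046, was the narrowest of the members. After correction for GC content and length its value was 0.064 (adjusted p = 7.7e-04), a call made in none of the other 14 alternatives.

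The 3 phosphofructokinase genes, whose products form mixed tetramers that commit the sugar to glycolysis, went different ways. The platelet-type gene Pfkp fell, with 316 and 316 CPM in the CKO-labelled libraries and 354 and 351 CPM in control (-0.16 ± 0.03, adjusted p = 3.9e-06). The liver-type gene Pfkl rose, with 336 and 345 CPM in the CKO-labelled libraries and 309.8 and 318 CPM in control (0.12 ± 0.03, adjusted p = 4.3e-04). The muscle-type gene Pfkm did not pass (0.013 ± 0.03, interval -0.048 to 0.075). The log2 count ratio of Pfkl to Pfkp was 0.090 and 0.13 in the CKO-labelled libraries and -0.19 and -0.15 in control, without overlap.

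Fructose-2,6-bisphosphate, the strongest activator of phosphofructokinase, is made and removed by the PFKFB enzymes. Pfkfb3, the isoform with the greatest kinase over phosphatase activity, lies at chr2:11471433-11554077 (mm10). It stood at 124 and 129.7 CPM in the CKO-labelled libraries, against 214 and 206 CPM in control (-0.73 ± 0.03, adjusted p = 9.9e-21). After Slc2a1 this was the deepest fall of the members. Pfkfb2, known as the heart isoform, did not pass (0.030 ± 0.04, interval -0.056 to 0.11), nor did the hypoxia-inducible isoform Pfkfb4, which was scarce at 11.6 and 12.2 CPM in the CKO-labelled libraries and 13.0 and 13.3 CPM in control (-0.15 ± 0.09, adjusted p = 0.202). The interval of Pfkfb4 ran from -0.33 to 0.030, so a fall of the size seen in Pfkfb3 lies outside it.

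From aldolase to pyruvate kinase, 5 of 8 genes rose (15.1% of all tested genes did), 2 did not pass and 1 was not tested. This boundary is not that of the member lists by role, which place Aldoa and Tpi1 with the hexose steps from hexokinase on. In that hexose list 3 of 8 genes rose, 3 fell and 2 did not pass, with a median of 0.012. In the list of triose steps 3 of 6 rose, none fell, 2 did not pass and 1 was not tested. The contrast between earlier and later steps thus depends in part on where the pathway is divided. Aldoa, the gene of the aldolase that splits fructose-1,6-bisphosphate, stood at 1605 and 1642 CPM in the CKO-labelled libraries, against 1459.7 and 1458 CPM in control (0.15 ± 0.02, adjusted p = 3.2e-08). Tpi1, whose enzyme interconverts the resulting trioses, stood at 905 and 924 CPM in the CKO-labelled libraries and at 787 and 775 CPM in control (0.23 ± 0.02, adjusted p = 3.1e-11). Both genes had every CKO-labelled library above every control library.

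Pgk1 encodes phosphoglycerate kinase, which makes the first ATP of the pathway, and lies at chrX:106187100-106203699 (mm10). Its level was 1844 and 1842 CPM in the CKO-labelled libraries, against 1422 and 1387 CPM in control (0.39 ± 0.02, adjusted p = 4.3e-19). This was the largest rise of the members. Pgk1 and Pdha1 are X-linked, and the groups differ in Y-linked transcripts as given above. Whether sex had a part in their values was not tested.

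Pgam1, the gene of phosphoglycerate mutase, stood at 741 and 754 CPM in the CKO-labelled libraries and at 663 and 668 CPM in control (0.17 ± 0.02, adjusted p = 6.9e-08). Pkm encodes the pyruvate kinases PKM1 and PKM2 by alternative splicing, which a gene count does not separate. It was at 2155 and 2134 CPM in the CKO-labelled libraries, against 1825 and 1871 CPM in control (0.21 ± 0.02, adjusted p = 5.5e-12). The neuronal enolase gene Eno2 did not pass, with 56.9 and 55.1 CPM in the CKO-labelled libraries and 60.3 and 59.7 CPM in control (-0.10 ± 0.04, adjusted p = 0.0858).

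Counts of Eno1 and Gapdh are uncertain. Eno1, the ubiquitous enolase gene at chr4:150236721-150248879 (mm10), had only 7 and 5 counts in the CKO-labelled libraries and 10 and 7 in control, and was not tested. Its near-identical retrogene Eno1b, looked up after these values were seen, had 8064 and 7766 counts in the CKO-labelled libraries and 6854 and 7339 in control (0.17 ± 0.03, adjusted p = 6.0e-06). The sources used here do not say how reads were divided between these copies. Gapdh, the glyceraldehyde-3-phosphate dehydrogenase gene at chr6:125161715-125166467 (mm10), had 1862 and 9359 counts in the CKO-labelled libraries and 3995 and 7897 in control. In CPM this was 65.9 and 360.1 in the CKO-labelled libraries and 151 and 280.3 in control, so both control libraries lay between the CKO-labelled ones. Between the 2 CKO-labelled libraries Gapdh differed 5.47-fold, the widest within-group difference among 2643 genes of at least 100 CPM, whose median was 0.044 on the log2 scale. The other 25 members at that level differed within a group by at most 0.0998 on the log2 scale. The fitted value of Gapdh (-0.037 ± 0.28, adjusted p = 0.937) turned with the library left out. It was -1.72 without the second CKO-labelled library and 0.73 without the first, and -0.40 without the first control library and 0.48 without the second. Gapdh has many processed pseudogenes in the mouse genome, and reads placed at more than 1 site made up 4.86% to 5.19% of all entries. Pgk1, Ldha, Pgam1, Tpi1, Aldoa and Pkm have pseudogenes too, and how such reads were counted is likewise not stated.

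Among lactate and pyruvate genes 2 of 5 rose and 3 did not pass. That is 40% called, against 33.1% of all tested genes and 42.4% of those with a mean log2 CPM of at least 5. Ldha encodes the lactate dehydrogenase subunit that favours lactate formation, at chr7:46841475-46855627 (mm10). It stood at 1665 and 1671 CPM in the CKO-labelled libraries, against 1379 and 1367 CPM in control (0.28 ± 0.02, adjusted p = 5.4e-15). Ldhb, the gene of the subunit that favours pyruvate, did not pass, with 229 and 231 CPM in the CKO-labelled libraries and 216 and 226 CPM in control (0.056 ± 0.03, adjusted p = 0.141). The log2 count ratio of Ldha to Ldhb was 2.86 and 2.85 in the CKO-labelled libraries and 2.67 and 2.60 in control, without overlap.

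Pyruvate dehydrogenase kinases switch off the entry of pyruvate into mitochondria. Pdk1, the hypoxia-inducible kinase gene, stood at 216 and 223 CPM in the CKO-labelled libraries and 209 and 200.1 CPM in control (0.10 ± 0.03, adjusted p = 0.0066). That call was lost without the second control library (0.069, adjusted p = 0.125), without the second CKO-labelled library (0.079, adjusted p = 0.103) with DESeq2 (0.10, adjusted p = 0.0783) and in the test against a 1.2-fold change. Over all 15 alternatives its adjusted p lay between 5.3e-05 and 1. Pdk2, the widely expressed kinase gene, did not pass (0.067 ± 0.05, interval -0.027 to 0.16). Pdha1, the X-linked gene of the catalytic E1 alpha subunit of pyruvate dehydrogenase, lay just outside the threshold (0.072 ± 0.03, adjusted p = 0.0529) and passed in 6 of 15 alternatives.

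Of the HIF factors and the hydroxylases that control them, 1 of 4 fell and 3 did not pass. That is 25% called, against 33.1% of all tested genes. Hif1a, the gene of the oxygen-regulated subunit, stood at 157 and 159 CPM in the CKO-labelled libraries, against 190.1 and 187 CPM in control (-0.26 ± 0.03, adjusted p = 6.0e-09). HIF activity is set largely at the protein level, which was not measured. Epas1, which encodes HIF-2 alpha, did not pass at 34.7 and 35.6 CPM in the CKO-labelled libraries and 36.3 and 37.3 CPM in control (-0.065 ± 0.05, adjusted p = 0.38). Egln1, the gene of the main oxygen sensor PHD2, was nearly equal, at 198 and 197 CPM in the CKO-labelled libraries and 197 and 199 CPM in control, and its interval ran from -0.060 to 0.057. Egln3, the gene of PHD3 and itself a HIF target, lay just outside the threshold at 89.4 and 89.7 CPM in the CKO-labelled libraries and 96.1 and 94.5 CPM in control (-0.090 ± 0.04, adjusted p = 0.0559).

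The remaining hypoxia genes divided, with 2 of 6 higher, 2 lower and 2 not passed (66.7% called, against 33.1% of all tested genes). Bnip3 and Bnip3l encode mitophagy receptors of the outer mitochondrial membrane, and both rose. Bnip3 stood at 356 and 340.4 CPM in the CKO-labelled libraries, against 271 and 279.8 CPM in control (0.34 ± 0.03, adjusted p = 6.6e-13). For Bnip3l the levels were 271 and 266 CPM in the CKO-labelled libraries and 230.3 and 227 CPM in control (0.23 ± 0.03, adjusted p = 7.7e-09). Ndrg1, a stress-responsive gene induced by hypoxia and iron loss, went the other way, with 100.2 and 97.9 CPM in the CKO-labelled libraries and 151 and 151 CPM in control (-0.61 ± 0.03, adjusted p = 1.1e-17). Car9, which encodes the membrane carbonic anhydrase IX that exports acid from hypoxic cells, fell to 99.7 and 96.8 CPM in the CKO-labelled libraries, against 117 and 109.5 CPM in control (-0.21 ± 0.04, adjusted p = 2.7e-05). The vasodilator peptide gene Adm did not pass (0.013 ± 0.04, interval -0.075 to 0.10), nor did the HIF target Ankrd37, at 12.2 and 10.9 CPM in the CKO-labelled libraries and 10.4 and 10.3 CPM in control (0.16 ± 0.10, adjusted p = 0.199).

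Most of these differences were small. Against a minimum of 1.2-fold, 7 members passed (6.92% of all tested genes did). Lower beyond that margin were Slc2a1, Slc16a1, Hk2, Pfkfb3 and Ndrg1, and higher beyond it were Pgk1 and Bnip3. The percent change was -44.3% for Slc2a1, -39.6% for Pfkfb3, -34.4% for Ndrg1, -29.0% for Hk2 and -23.0% for Slc16a1. It was 31.2% for Pgk1 and 26.4% for Bnip3. The 6 genes from hexokinase to phosphofructokinase summed to 4033 and 4013 CPM in the CKO-labelled libraries, against 4051 and 4067 CPM in control. Most of these sums came from Gpi1, which did not pass, so they say little about the other genes of that group. Gpi1 alone had 2886 and 2852 CPM in the CKO-labelled libraries and 2841 and 2853 CPM in control. Aldoa and Tpi1 together had 2510.3 and 2566 CPM in the CKO-labelled libraries and 2246 and 2233 CPM in control. The later genes Pgk1, Pgam1, Eno1, Eno2 and Pkm, without Gapdh, summed to 4798 and 4785 CPM in the CKO-labelled libraries. In control they summed to 3971 and 3986 CPM. With Gapdh the sums were 4864 and 5145 CPM in the CKO-labelled libraries and 4123 and 4266 CPM in control. The 4 transporters summed to 424 and 427 CPM in the CKO-labelled libraries, against 561 and 549 CPM in control.

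Ratios of related members within a library do not depend on its scaling. Groups overlapped for Eno2/Eno1 and Pdk1/Pdk2 and not for the other 11 pairs. No share was computed for pairs of other genes, and single genes did not overlap in 64.9% of cases. The widest differences were those of Pfkfb3 to Pfkfb2 (-0.76, CKO-labelled minus control) and Slc2a1 to Slc2a3 (-0.59). With 2 libraries a group, no two-sided exact permutation p can go under 0.333, so these are descriptions.

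**Figure D3:**
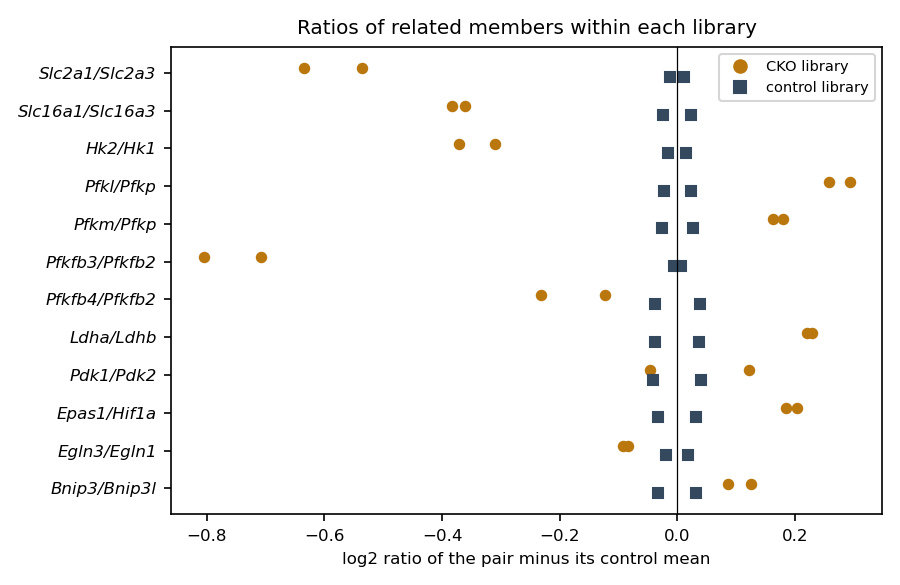
Log2 ratio of related members within each library, minus the mean of the control libraries (x axis), for the 12 pairs other than Eno2/Eno1, with CKO-labelled libraries as circles above and control libraries as squares below. Only Pdk1/Pdk2 has overlapping groups; Slc2a1/Slc2a3 and Pfkfb3/Pfkfb2 lie farthest to the left and Pfkl/Pfkp farthest to the right.

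Per length of exon, Pgk1 and Aldoa stood highest in both groups. Levels here are CPM per kb of the union of annotated exons, so genes with many long isoforms are understated. Pgk1 led at 821 CPM per kb in the CKO-labelled libraries and 626 in control. Aldoa (558 in the CKO-labelled libraries and 501 in control), Ldha (504 and 415), Gpi1 (445 and 441), Pkm (429 and 369.5), Pgam1 (377 and 336) and Tpi1 (332 and 284) came next in CPM per kb. In control Gpi1 stood above Ldha, and in the CKO-labelled libraries Ldha stood above Gpi1. Gapdh (51.5 CPM per kb in the CKO-labelled libraries and 52.2 in control) and Eno1 (0.041 and 0.058) stood lower. Their counts are uncertain as given above, so their places in this order are too. The regulated entry steps were scarcer, with Slc2a1 at 26.8 CPM per kb in the CKO-labelled libraries and 48.1 in control, and Hk1 at 32.3 and 35.9. Hk2 was at 8.00 CPM per kb in the CKO-labelled libraries and 11.3 in control, and Pfkfb4 at 2.44 and 2.70. All 7 genes above 200 CPM per kb encode enzymes of glycolysis or lactate formation, and none of them fell.

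**Figure D4:**
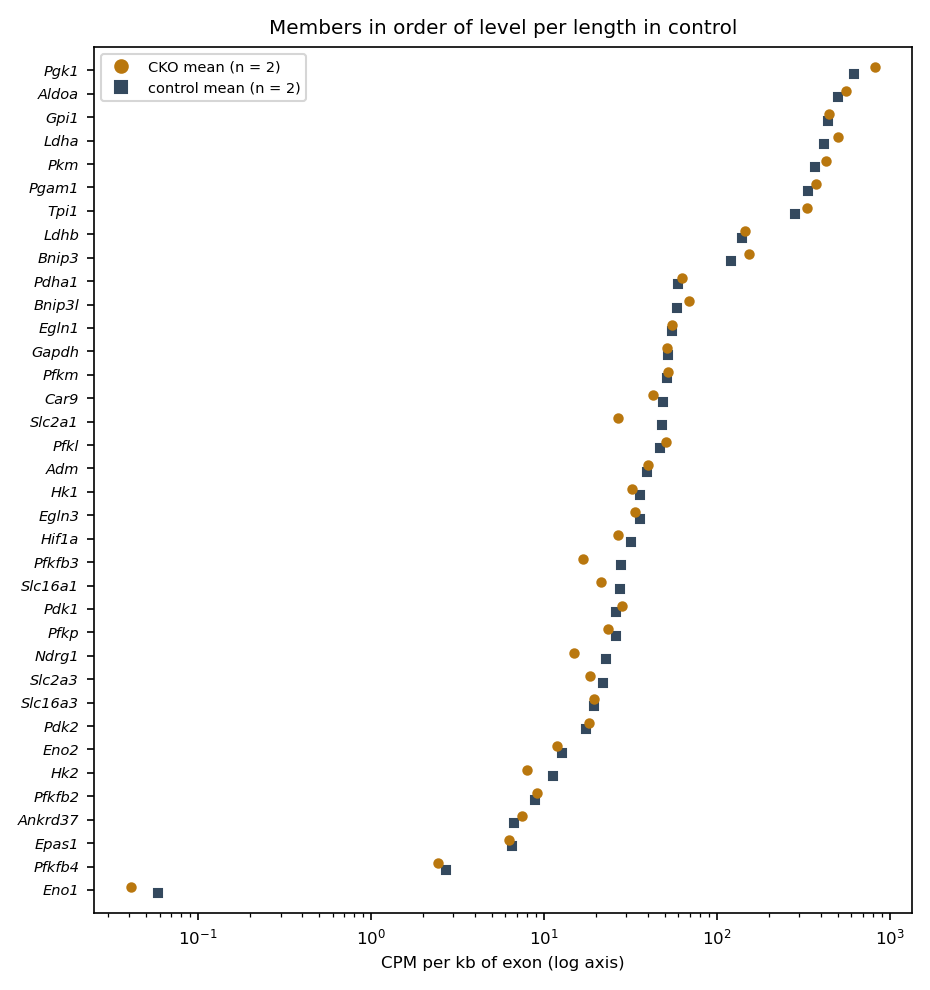
Mean level of each member in CPM per kb of exon on a log axis, CKO-labelled libraries as circles and control libraries as squares (n = 2 each), in order of the control level. Enzymes from Pgk1 to Tpi1 sit at the top, and Slc2a1, Pfkfb3 and Ndrg1 show the widest gaps to the left of control.

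Other genes of the same pathways were then counted from lists that hold no member. Of 142 genes 132 were tested, 22 were higher and 33 lower in the CKO-labelled libraries, together 41.7% of those tested, against 33.1% of all tested genes. Their median was -0.043.

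In the list of sugar and monocarboxylate transport, which holds transporters and their chaperones, 7 of 13 were higher and none lower, against 15.1% higher and 18.1% lower of all tested genes, and the median was 0.26. The 7 were the chaperone genes Bsg and Emb, the transporter genes Slc2a12, Slc2a13 and Slc16a8, and the mitochondrial pyruvate carrier genes Mpc1 and Mpc2. Slc2a13, Slc16a8, Mpc1 and Mpc2 are named here after their values were seen. Mpc1 stood at 9.76 and 13.7 CPM in the CKO-labelled libraries and 11.1 and 7.24 CPM in control (0.35 ± 0.13, adjusted p = 0.0377). Its groups overlapped, so that call is weak. Bsg encodes basigin, the chaperone that carries MCT1 and MCT4 to the membrane, and stood at 884 and 919 CPM in the CKO-labelled libraries and 706 and 724 CPM in control (0.33 ± 0.02, adjusted p = 4.4e-15). Emb, the gene of the related chaperone embigin, was at 13.6 and 15.9 CPM in the CKO-labelled libraries and 9.16 and 10.0 CPM in control (0.62 ± 0.10, adjusted p = 2.1e-06). Slc2a12, a further glucose transporter gene, rose as well (0.85 ± 0.11, adjusted p = 6.9e-08). The chaperone gene Bsg and the transporter gene Slc16a1 thus moved in opposite directions.

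Among other genes of glycolysis and gluconeogenesis 4 of 18 rose, 1 fell and 13 did not pass (27.8% called, against 33.1% of all tested genes). Bpgm, whose enzyme makes 2,3-bisphosphoglycerate, was higher (0.31 ± 0.05, adjusted p = 5.2e-06), as were the astrocyte-enriched aldolase gene Aldoc (0.12 ± 0.03, adjusted p = 8.1e-04) and the paralog Gapdhs (0.31 ± 0.07, adjusted p = 0.001), while the phosphoglucomutase gene Pgm1 was lower (-0.18 ± 0.06, adjusted p = 0.0096). Of 9 further genes of the pyruvate dehydrogenase complex only Dlat, the gene of its E2 subunit, passed, as lower (-0.17 ± 0.04, adjusted p = 3.4e-04). That is 11.1% called, against 33.1% of all tested genes. Of 11 glycogen genes 7 were lower and 1 higher, against 18.1% lower and 15.1% higher of all tested genes, and the median was -0.11. The synthase gene Gys1 stood at 109.8 and 111 CPM in the CKO-labelled libraries and 132 and 126 CPM in control (-0.23 ± 0.03, adjusted p = 1.2e-06), and the branching enzyme gene Gbe1 (-0.20 ± 0.04) and the muscle phosphorylase gene Pygm (-0.36 ± 0.10) also fell. The 1 that rose, Ppp1r3c, encodes a scaffold that brings a phosphatase to glycogen (0.19 ± 0.03, adjusted p = 3.6e-06). In the pentose phosphate pathway 2 of 10 fell, the dehydrogenase genes G6pdx (-0.13 ± 0.04) and H6pd (-0.36 ± 0.11), and the lactonase gene Pgls rose (0.15 ± 0.04). These calls are 30% of that list, against 33.1% of all tested genes.

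Genes of the shuttles that carry electrons of cytosolic NADH into mitochondria were lower in 6 of 10 cases and higher in none, against 18.1% and 15.1% of all tested genes, with a median of -0.12. Gpd1, the cytosolic glycerol-3-phosphate dehydrogenase gene, had the deepest fall of that list, with 27.1 and 29.5 CPM in the CKO-labelled libraries and 56.5 and 61.1 CPM in control (-1.06 ± 0.05, adjusted p = 1.3e-18). Its mitochondrial partner Gpd2 stood at 92.6 and 93.4 CPM in the CKO-labelled libraries and 121 and 121 CPM in control (-0.38 ± 0.03, adjusted p = 1.6e-11). Got2, the mitochondrial aspartate aminotransferase gene of the malate-aspartate shuttle, was lower as well (-0.14 ± 0.03, adjusted p = 6.5e-05). Gpd1l, a paralog of Gpd1 in the same list, did not pass, with 145 and 152 CPM in the CKO-labelled libraries and 146 and 143 CPM in control (0.037 ± 0.03, adjusted p = 0.422). It was singled out after its values were seen.

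Among other components of HIF signalling 1 of 14 rose, 2 fell and 11 did not pass (21.4% called, against 33.1% of all tested genes). The HIF partner gene Arnt did not pass (0.072 ± 0.04, interval -0.013 to 0.16), whereas its neural paralog Arnt2 was lower (-0.10 ± 0.03, adjusted p = 0.0034). Vhl, the gene of the ubiquitin ligase subunit that captures hydroxylated HIF, was nearly equal (interval -0.083 to 0.081), and the hydroxylase gene Egln2 (0.038 ± 0.04, adjusted p = 0.524) and Hif3a (-0.23 ± 0.11, adjusted p = 0.108) did not pass. Cited2, the gene of a coactivator competitor of HIF, was lower (-0.28 ± 0.06, adjusted p = 1.1e-04), and Os9 was higher (0.15 ± 0.03, adjusted p = 2.5e-04).

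Of 42 further HIF target genes 8 rose, 13 fell and 21 did not pass, and the median was -0.070. The calls are 50% of these genes, against 33.1% of all tested genes (15.1% higher and 18.1% lower). Vegfa, the vascular growth factor gene, stood at 1106 and 1083 CPM in the CKO-labelled libraries, against 886 and 892 CPM in control (0.30 ± 0.02, adjusted p = 9.2e-15). The cytokine gene Mif was also higher, at 521 and 542 CPM in the CKO-labelled libraries and 375 and 400.2 CPM in control (0.46 ± 0.03, adjusted p = 9.5e-17), as was the carbonic anhydrase gene Car12 (1.09 ± 0.06, adjusted p = 2.9e-17), in contrast to Car9. The deepest fall was that of Igfbp3, the gene of an IGF-binding protein, with 237 and 234 CPM in the CKO-labelled libraries and 492 and 494 CPM in control (-1.07 ± 0.03, adjusted p = 3.0e-29). Ero1l, whose oxidase forms disulfides in the endoplasmic reticulum, was at 153 and 152 CPM in the CKO-labelled libraries and 269 and 255 CPM in control (-0.78 ± 0.03, adjusted p = 1.7e-22), and the AP-1 gene Fosl2 was lower too (-0.75 ± 0.04, adjusted p = 3.1e-17). HIF targets outside the member set thus moved both ways, as did tested genes in general. Txnip, the glucose-induced arrestin that removes GLUT1 from the membrane, did not pass at 136 and 135 CPM in the CKO-labelled libraries and 130.3 and 133 CPM in control (0.043 ± 0.03, adjusted p = 0.328), and its relative Arrdc4 was lower (-0.13 ± 0.03, adjusted p = 0.0042).

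**Figure D5:**
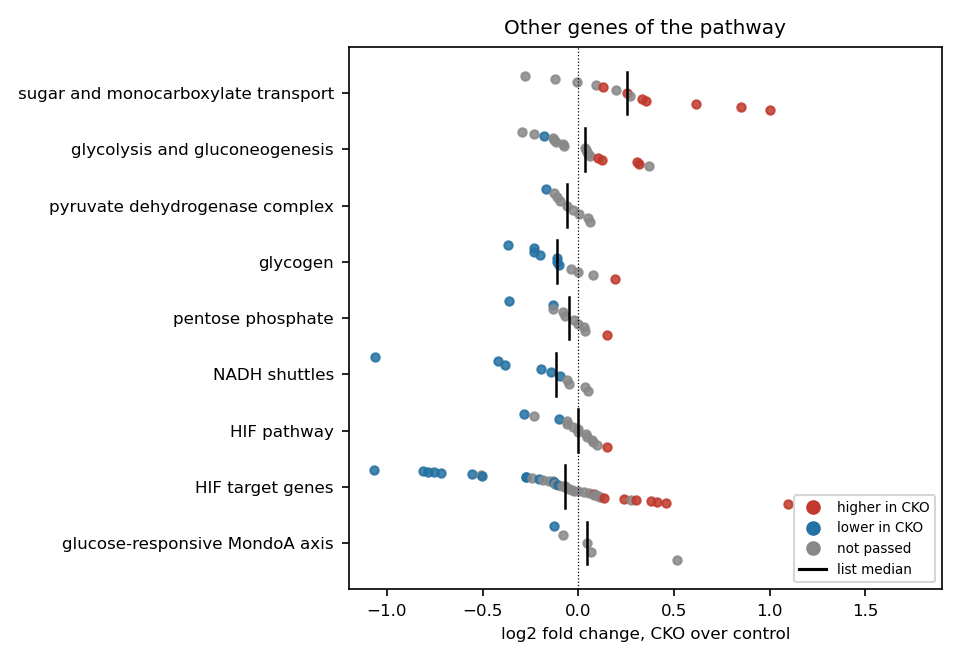
Log2 fold change, CKO-labelled over control (x axis), of the tested genes in 9 lists of other pathway genes, with a bar at each list's median. Points of sugar and monocarboxylate transport lie mostly right of 0, those of glycogen and the NADH shuttles mostly left of it, and HIF targets on both sides.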

How the data were processed

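Poly(A) RNA of 4 libraries was sequenced as paired reads from libraries that mark the strand with dUTP, per the labels' protocols. The deposited tables hold an unnormalised count for every symbol; HISAT2 2.2.1, HTSeq 0.12.4, DESeq2 1.26.0 and mm10 are named in the submitters' processing notes. The sources used here state neither the strand setting nor the annotation of the counting. Each table ends in 5 summary lines, 25.2% to 26.1% of all entries, which were left out.

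Counts were tested with edgeR 4.0.16 in R 4.3.3 (filterByExpr, trimmed mean of M values, quasi-likelihood fit with legacy turned off, 15012 genes, threshold 0.05). The biological coefficient of variation was 0.0242. Intervals are 95% and come from the standard error of that fit. Whether these intervals cover variation between embryos is not known, since the labels do not say whether libraries had embryos of their own. The floors of 3 counts cover none, and the reads carry no molecular identifiers. With 2 against 2 libraries no two-sided exact permutation p can go under 0.333, so none was used. Replicate pairs differed by more than sampling noise (chi-square per gene 2.20 in the CKO-labelled and 1.96 in the control libraries, where sampling gives about 1). The part of single genes with wide differences, such as Gapdh and Ppia, in these values was not tested. Positions and exon lengths came from GENCODE M21 (GRCm38), in which 95.8% of symbols and all 36 members were found, and promoter windows from RefSeq (GRCm38.p6). The steps were tested on simulated counts.

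The members, lists and tests were chosen with earlier results of these data known. All 36 members are named, with Prrc2b, Nes, Xist and 4 Y-linked genes as a label check; of each other pathway list up to 3 called genes per direction with the smallest p are named, with Txnip, Arnt, Arnt2, Vhl, Egln2, Hif3a, Vegfa and Aldoc, and of each marker list at most the 3 most abundant. Alternatives were other scalings, filters and tests (DESeq2 1.42.0, limma 3.58.1), blocking on the replicate number, adjusting for length and GC content, and omission of each library.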

Additional observations from a re-analysis of the deposited data

How the results depend on the processing

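All 20 called members kept their call and direction under RLE, upper quartile and total count scaling, both other low-count filters, the legacy fit, limma voom, the replicate block and the correction for GC content and length. DESeq2 kept 19 of the 20. It called fewer genes, 971 higher and 1550 lower (16.6%), and 20 other pathway genes as lower. Upper quartile scaling shifted the median of all genes to 0.031 and gave 2939 genes higher and 2288 lower (56.2% of calls higher, against 45.5%), with 12 members higher and 10 lower; correction for GC content and length gave 53.6% of calls as higher.

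The test against a 1.2-fold change left 279 genes higher and 760 lower, 2 members higher and 5 lower, and 8 other pathway genes higher and 9 lower. The median of members was 0.038 with upper quartile scaling, 0.019 with total counts, 0.0048 without the filter, 0.024 after GC and length correction, and -0.014 to 0.0078 when a library was left out.

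Members that changed sign were all near 0 or Gapdh. Slc16a3 turned to 0.023 with upper quartile scaling, 0.0033 with total counts and 0.024 after GC and length correction; Egln1 turned to 0.025, 0.0062 and 0.027 in these. After that correction Ldhb was -0.00063 and Adm -0.044. Leaving out a library gave ranges of -0.029 to 0.020 for Slc16a3, -0.0083 to 0.034 for Pfkm, -1.72 to 0.73 for Gapdh, -0.0089 to 0.0047 for Egln1 and -0.033 to 0.060 for Adm, and 19 or 20 of the calls were kept.

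Same-numbered libraries share only a number: their deviations correlated at -0.016. With the replicate block 2442 genes were higher and 2881 lower, and 11 members each way, Pdha1 (adjusted p = 0.0282) and Egln3 (adjusted p = 0.0382) among them. The cause of these changes was not tested.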

Other observations

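Genes other than Gapdh also varied between libraries of a group in ways that the abundant members did not. Next to Gapdh among the 2643 genes of at least 100 CPM stood Ppia, the gene of cyclophilin A and a common reference gene, whose widest within-group difference was 0.46 on the log2 scale. Its levels were 1127 and 818 CPM in the CKO-labelled libraries and 896 and 1064 CPM in control. Ribosomal protein genes Rps12 (0.31) and Rpl29 (0.29) followed. In the CKO-labelled libraries Ppia was higher in the library where Gapdh was lower, whereas in control both were higher in the second library. The 10 genes with the widest differences were ranked after the data had been seen, and no test was run on them.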
